A study of Mus musculus with 6 samples.

Results

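The genes described here encode the subunits of Polycomb repressive complex 2 (PRC2): the core subunits Ezh1, Ezh2, Eed and Suz12, and the accessory subunits Jarid2, Aebp2, Mtf2, Phf1, Phf19 and Ezhip. They were chosen by symbol as known parts or direct partners of the complex, and all 10 had a row in the count table of 24594 entries and passed the filter on low counts, which left 13115 genes. Nuclear RNA was sequenced from the mouse cerebellum after nuclei had been sorted for NeuN, a protein of neuronal nuclei encoded by Rbfox3, and the labels call the cells cerebellar granule cells. The cKO group was Ezh1(cKO/cKO);Neurod1-Cre and the WT group Ezh1(wt/wt);Neurod1-Cre, with 3 libraries each from mice aged 7 months, so that both groups carried the Cre recombinase, which is named for the neuronal transcription factor gene Neurod1. The labels give neither the exons removed from Ezh1 nor the share of nuclei in which Cre had acted, and do not say whether each library came from its own animal. The p-values therefore measure the spread between these libraries only.

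PRC2 places methyl groups on lysine 27 of histone H3, a mark of repressed genes. EZH1 and EZH2 are alternative catalytic subunits, SUZ12 is the scaffold, and EED binds the methylated lysine and stimulates the enzyme. EZH2 is abundant in dividing cells, while EZH1 is typical of cells that no longer divide, neurons among them. The accessory subunits define alternative forms of the complex: the Polycomb-like proteins PHF1, MTF2 and PHF19 in PRC2.1, and JARID2 and AEBP2 in PRC2.2. EZHIP, best known from germ cells and from ependymoma, is an inhibitor of the enzyme.

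The libraries held 6340236 to 6827022 counts in cKO and 6682805 to 8284768 in WT, and levels are given as CPM, counts scaled to a library total of 1000000. All 13 granule cell markers on the list were counted, at a sum of 5147 to 6124 CPM in cKO and 5281 to 5434 CPM in WT. Of these 13, 1 was called between the genotypes, where 0.587% of all tested genes were called. This was Neurod1, the gene for which the Cre is named. It rose to 316.9, 317.5 and 286.6 CPM in cKO, against 138.3, 153.9 and 134.2 CPM in WT. On the log2 scale it was 1.11 higher in cKO (SE 0.08, edgeR adjusted p = 8.04e-10). Its part in the results on PRC2 genes was not tested. Markers of oligodendrocytes, which the sort should remove, were also counted, 9 of 9, at 324 to 719 CPM in cKO and 269 to 461 CPM in WT, and Purkinje cell markers, 5 of 5, at 370.3 to 540 CPM in cKO and 427 to 613 CPM in WT. The ranges of the genotypes overlapped for each of these lists and for those of interneurons, unipolar brush cells, astrocytes, microglia and vessels. Replicate 1 of each genotype stood apart in Xist, which silences an X chromosome in female cells: it reached 831 CPM in cKO replicate 1 and 812 CPM in WT replicate 1, against 1.39 to 4.46 CPM in the other 4 libraries. In the text below a gene is said to have risen or fallen only where the Benjamini-Hochberg adjusted p of edgeR's quasi-likelihood test, over all 13115 genes, was below 0.05, and log2 fold changes are cKO over WT.

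The promoters of the 4 core genes are shown because the catalytic and core subunits are the subject of the comparison and because EZH2 is a classic target of E2F, the transcription factor family of the cell division cycle. Each is 300 bases of RefSeq sequence on GRCm38.p6, 5′ to 3′ on the strand of the gene, with 250 bases before the annotated start. Capitals mark matches, on either strand, to TTTCCCGC, TTTGGCGC, TTTCGCGC or TTTGCCGC, which are letters typical of E2F sites.
Ezh1: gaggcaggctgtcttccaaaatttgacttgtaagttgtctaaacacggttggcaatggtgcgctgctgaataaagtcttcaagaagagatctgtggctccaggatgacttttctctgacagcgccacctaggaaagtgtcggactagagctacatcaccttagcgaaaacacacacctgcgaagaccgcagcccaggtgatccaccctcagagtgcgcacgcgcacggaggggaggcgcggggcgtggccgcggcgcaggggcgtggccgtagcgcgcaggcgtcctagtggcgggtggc
Ezh2: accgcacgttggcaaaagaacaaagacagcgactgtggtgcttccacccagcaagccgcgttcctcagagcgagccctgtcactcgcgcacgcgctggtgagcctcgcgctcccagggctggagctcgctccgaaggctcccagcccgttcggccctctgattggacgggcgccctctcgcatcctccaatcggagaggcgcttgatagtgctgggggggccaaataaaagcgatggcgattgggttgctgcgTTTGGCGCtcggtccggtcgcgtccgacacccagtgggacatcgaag
Eed: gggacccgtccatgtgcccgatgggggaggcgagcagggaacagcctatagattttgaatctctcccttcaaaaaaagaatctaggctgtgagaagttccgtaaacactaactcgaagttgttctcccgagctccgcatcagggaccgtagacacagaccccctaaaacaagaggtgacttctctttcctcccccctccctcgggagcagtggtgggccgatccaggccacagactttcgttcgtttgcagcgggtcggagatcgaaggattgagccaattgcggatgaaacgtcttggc
Suz12: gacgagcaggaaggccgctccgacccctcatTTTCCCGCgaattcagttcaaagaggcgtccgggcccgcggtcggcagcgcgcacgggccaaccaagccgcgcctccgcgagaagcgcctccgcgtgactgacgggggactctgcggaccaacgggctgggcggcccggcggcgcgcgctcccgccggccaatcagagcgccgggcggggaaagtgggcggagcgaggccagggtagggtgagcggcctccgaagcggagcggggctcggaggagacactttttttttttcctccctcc
The windows lie at chr11:101226414-101226713 on the minus strand for Ezh1, chr6:47594981-47595280 on the minus strand for Ezh2, chr7:89980927-89981226 on the minus strand for Eed and chr11:79992856-79993155 on the plus strand for Suz12. Ezh2 and Suz12 each held 1 match, and among the accessory genes Phf19 did. Ezh1, Eed and the other accessory genes held none in these windows, which says only that the letters are absent there. The letters occurred in 2.26% of all 32851 RefSeq promoter windows, and 3 of the 14 windows of the 10 genes held them. CpG pairs numbered 23 in the Ezh1 window, 31 for Ezh2, 17 for Eed and 41 for Suz12, against a median of 7 over all windows.

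Ezh1 fell in cKO and was the 1 PRC2 gene of 10 to pass the test. The gene lies on the minus strand of chromosome 11 (101191115 to 101226463, GRCm38). It had 52.5, 50.9 and 55.6 CPM in cKO replicates 1, 2 and 3, against 71.0, 75.6 and 83.3 CPM in WT replicates 1, 2 and 3. Every cKO library lay below every WT library. On the log2 scale this was a fold change of -0.53 (SE 0.10, 95% interval -0.73 to -0.33, adjusted p = 0.00672 in edgeR). Of all tested genes 0.587% were called, 0.259% as lower, and every cKO library lay below every WT library for 8.4%. DESeq2 and limma-voom, which called 0.877% and 0.32% of all tested genes, also called Ezh1 and no other member, though DESeq2 gave no adjusted p to Ezh2, Eed, Phf1, Phf19 and Ezhip. Between libraries of the same number, the log2 difference was -0.44, -0.57 and -0.58. The call was lost in some fits that left out 1 library. The adjusted p in edgeR was 0.115 without WT replicate 3 (log2 fold change -0.47) and 0.0833 without cKO replicate 1 (-0.53). Those fits called 13 and 14 genes in the whole table, against 77 with all 6 libraries. In the 2 cKO and 2 WT libraries with little Xist the log2 fold change was -0.58 (adjusted p = 0.0485 in edgeR). The count covers the whole gene, so it does not tell intact from recombined transcripts, and fewer nuclei with the gene and less RNA per nucleus cannot be told apart in sorted bulk samples.

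Ezh2, which encodes the other catalytic subunit, did not pass. Its level was 25.0, 23.5 and 22.01 CPM in cKO and 26.9, 25.8 and 23.1 CPM in WT, from 143 to 174 counts in a cKO library and 178 to 190 in a WT library. The ranges overlapped. In cKO over WT it stood at -0.10 on the log2 scale (SE 0.14, adjusted p = 0.837 in edgeR), and the 95% interval, -0.39 to 0.19, corresponds to 0.766-fold to 1.14-fold, so a larger gain of Ezh2 RNA than that lies outside the interval. The 15 proliferation genes on the list, which mark cycling cells such as progenitors, summed to 18.1 to 25.9 CPM in cKO and 19.4 to 24.4 CPM in WT. All 15 had counts, 5 passed the filter, and 0 were called by edgeR, which called 0.587% of all tested genes.

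The balance of the catalytic pair was lower in every cKO library. Counts of Ezh1 divided by counts of Ezh2 gave 2.10, 2.17 and 2.52 in cKO and 2.64, 2.94 and 3.61 in WT. The cKO values lay below the WT values without overlap, at 2.26 ± 0.228 and 3.06 ± 0.497 (SD, n = 3 each). On the log2 scale the difference was -0.43, and the exact two-sided permutation p was 0.1, which is as low as 3 libraries against 3 can give. It ranged from -0.53 to -0.30 when single libraries were left out. As a share of the pair, Ezh1 took 67.7%, 68.5% and 71.6% of the counts in cKO and 72.5%, 74.6% and 78.3% in WT. The libraries nearest to each other were cKO replicate 3 (95% Wilson interval 67.5% to 75.4%) and WT replicate 1 (69.0% to 75.8%), whose intervals, which cover counting error only, overlapped.

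How far the pair stood apart depends on the length taken for each gene, while on each scale the cKO libraries lay below the WT libraries. Per kb of exon (6081 bases for Ezh1 and 2802 for Ezh2), Ezh1 over Ezh2 was 0.967, 1.00 and 1.16 in cKO, close to equal and below 1 in replicate 1, and 1.22, 1.35 and 1.66 in WT. Per kb of gene span (35349 and 64997 bases) it was 3.86 to 4.64 in cKO and 4.86 to 6.64 in WT. Nuclear RNA holds unspliced transcripts, and whether reads in introns were counted is not given in the sources used here.

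**Figure D1:**
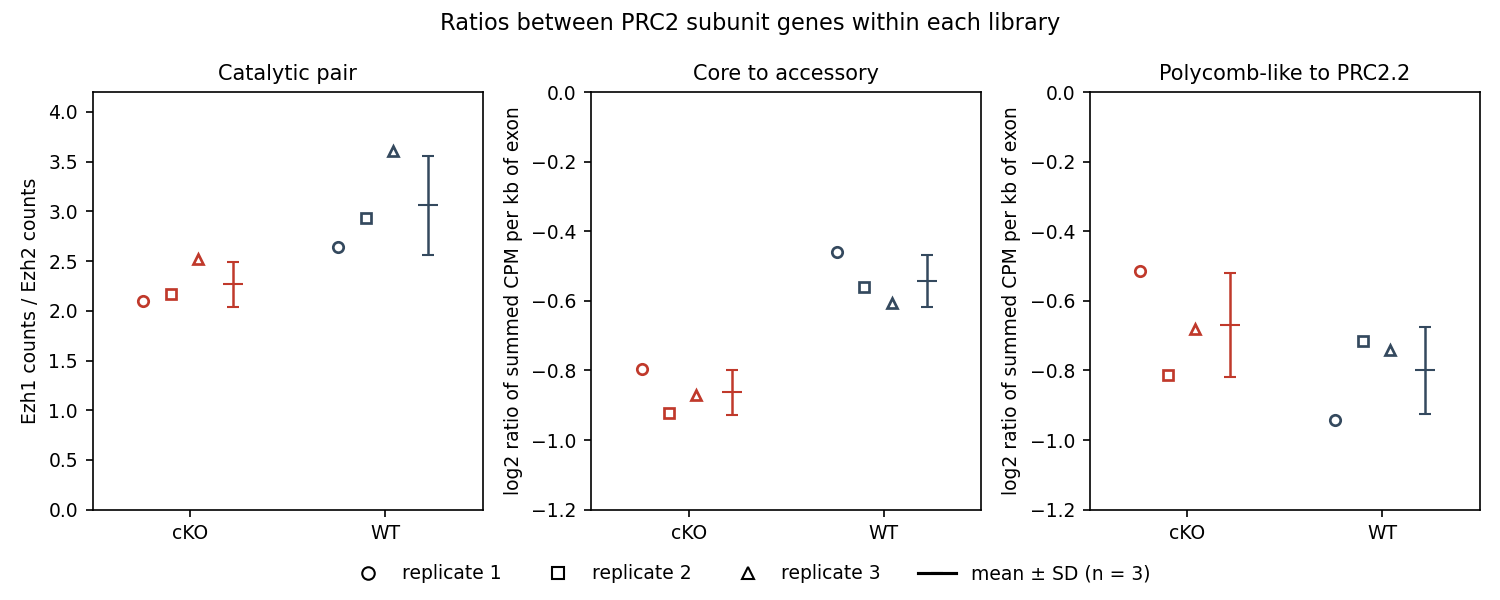
Ratios within each library, cKO left and WT right, with 1 point per library (shape gives the replicate number) and the mean ± SD beside them; the left panel is on a linear axis and the other panels are on a log2 scale. The 3 cKO libraries lie below the 3 WT libraries for Ezh1 over Ezh2 (2.10 to 2.52 against 2.64 to 3.61) and for core over accessory, and overlap with them for Polycomb-like over PRC2.2.

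Eed showed a difference close to that of Ezh1 in size but did not pass. Its level was 26.9, 22.2 and 26.8 CPM in cKO, against 35.5, 37.3 and 32.4 CPM in WT. Every cKO library lay below every WT library, which held for 8.4% of all tested genes. In edgeR the log2 fold change was -0.47 (SE 0.13, 95% interval -0.74 to -0.20), with an unadjusted p of 0.00147 and an adjusted p of 0.105 in edgeR. Across the 13 other fits the log2 fold change lay between -0.52 and -0.38, and none of those with an adjusted p called it (0.0520 to 0.421 in edgeR and limma-voom). Eed lies on the minus strand of chromosome 7 (89954654 to 89980976), on another chromosome than Ezh1.

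Suz12, the scaffold of the complex, had 53.5, 48.3 and 47.4 CPM in cKO and 51.8, 57.0 and 47.8 CPM in WT. These ranges overlapped almost throughout. Suz12 had a log2 fold change of -0.07 (SE 0.11, 95% interval -0.29 to 0.16, adjusted p = 0.862 in edgeR). Within the core, on a per-exon-length scale, Ezh1 took 20.2%, 21.7% and 22.4% of the summed level in cKO and 23.2%, 23.6% and 28.2% in WT, and Eed took 27.9% to 31.8% in cKO and 32.3% to 34.3% in WT. The shares of Suz12 (26.6% to 28.7% in cKO and 22.5% to 24.7% in WT) and Ezh2 (19.3% to 21.7% in cKO and 17.0% to 19.1% in WT) were accordingly higher, since the shares of a library add up to the whole. No test was run on these shares.

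**Figure D2:**
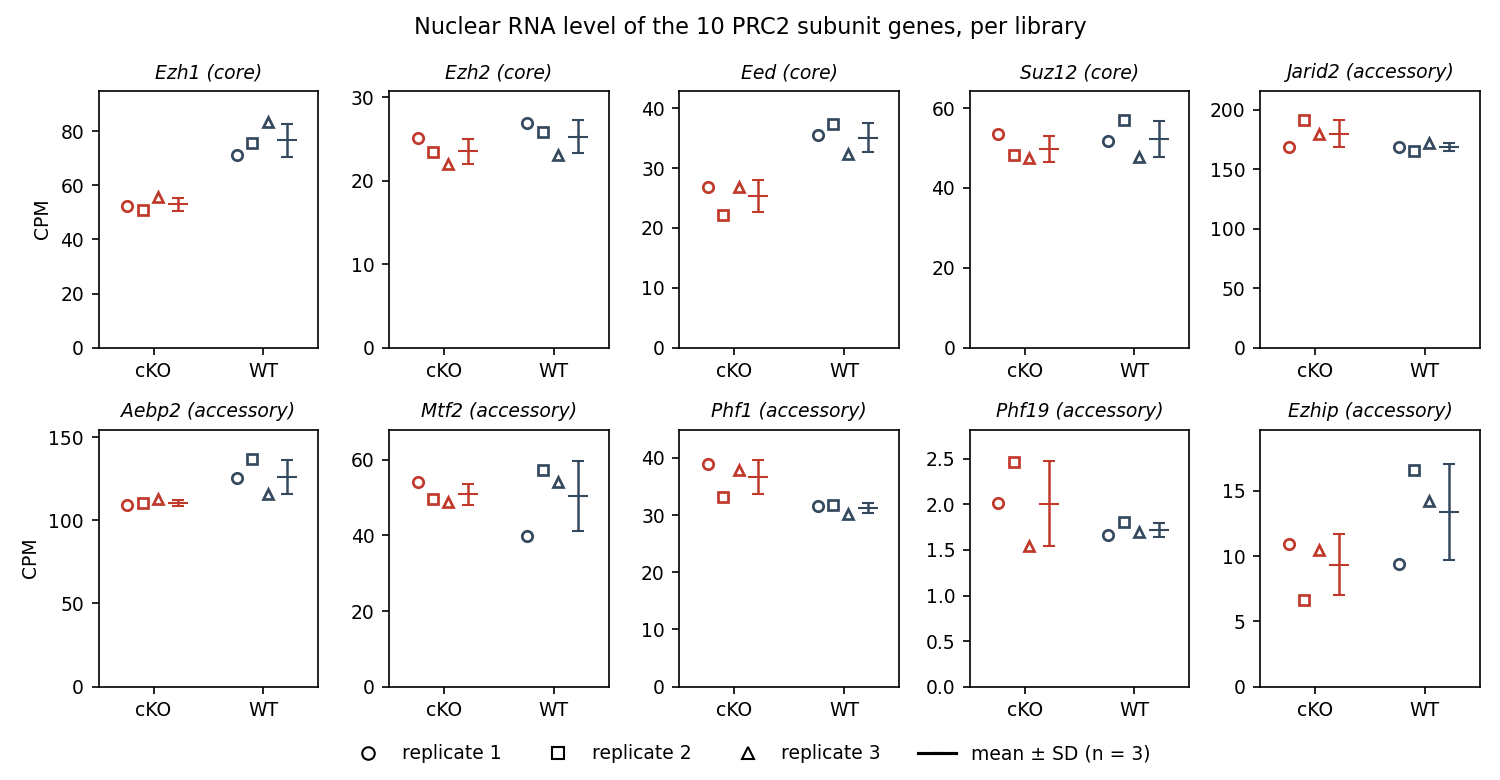
Level in CPM (linear axes from 0) of each of the 10 PRC2 genes, cKO left and WT right, 1 point per library with the mean ± SD beside them. The genotypes are apart for Ezh1, Eed, Aebp2 and Phf1 and overlap for the other 6 genes. Over all tested genes they are apart for 16.3%. WT replicate 1 lies low for Mtf2 and Ezhip.

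The accessory genes of PRC2.2 were not called. Jarid2, whose product helps PRC2 bind chromatin, was the highest of all 10 genes per kb of exon, at 29.3 ± 1.87 CPM per kb in cKO and 27.4 ± 0.535 CPM per kb in WT. It had 168.8, 191.9 and 179.8 CPM in cKO, against 168.7, 165.8 and 172.3 CPM in WT. The groups overlapped, since cKO replicate 1 lay among the WT values. Jarid2 had a log2 fold change of 0.09 (95% interval -0.07 to 0.26, adjusted p = 0.706 in edgeR). Aebp2, a zinc finger cofactor, had 109.1, 110.2 and 112.7 CPM in cKO and 125.2, 136.6 and 116 CPM in WT. Its cKO libraries all lay below the WT libraries, as for 8.4% of all tested genes. Aebp2 did not pass (log2 fold change -0.19, SE 0.08, unadjusted p = 0.0373, adjusted p = 0.383 in edgeR).

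Of the 3 Polycomb-like genes, Phf1 and Mtf2 were many times higher than Phf19 per kb of exon, at 13.9 and 12.5 CPM per kb against 0.537 in cKO. Phf1 had 38.9, 33.2 and 37.9 CPM in cKO and 31.6, 31.8 and 30.2 CPM in WT, and was the 1 member whose cKO libraries all lay above the WT libraries (log2 fold change 0.23, SE 0.12, 95% interval -0.02 to 0.49, adjusted p = 0.480 in edgeR), which held for 7.91% of all tested genes. In GENCODE, though not in RefSeq, transcripts of the gene Cuta run across exons of Phf1 on the opposite strand, and likewise those of Tmed5 across Mtf2. Which annotation was counted is not given. Only if it held such overlaps could reads there not be assigned without strand. Cuta had 9.57 to 12.2 CPM in cKO and 8.62 to 13.8 CPM in WT, and Tmed5 had 4.62 to 6.95 CPM in cKO and 3.20 to 6.55 CPM in WT. Neither neighbour was called, at adjusted p of 0.986 and 0.705 in edgeR.

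Mtf2 had 54.1, 49.6 and 49.0 CPM in cKO and 39.9, 57.2 and 54.2 CPM in WT. WT replicate 1 stood apart: the coefficient of variation over the WT libraries was 18.4%, where counting error alone gives 5.17%, against 5.55% in cKO with a counting error of 5.44%. The log2 fold change was 0.01 (95% interval -0.24 to 0.26), and -0.13 without WT replicate 1 (adjusted p = 0.690 in edgeR). Phf19 was the lowest of the members at 10 to 16 counts in a cKO library and 11 to 14 in a WT library, or 2.01 ± 0.465 CPM in cKO and 1.72 ± 0.0772 CPM in WT. Its interval, -0.72 to 1.15 on the log2 scale, was the widest among the members and the 1 that reached beyond 2-fold.

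Ezhip, the inhibitor, was counted in every library, with 76, 43 and 68 counts in cKO and 62, 119 and 117 in WT. That is 10.9, 6.64 and 10.5 CPM in cKO and 9.37, 16.6 and 14.2 CPM in WT, and WT replicate 1 lay within the cKO range. The log2 fold change was -0.52 (SE 0.23, 95% interval -0.99 to -0.05), with an unadjusted p of 0.0322 and an adjusted p of 0.361 in edgeR, and it lay between -0.71 and -0.33 when single libraries were left out. The spread was beyond counting error, with a coefficient of variation of 25.2% in cKO and 27.4% in WT where counting gives 12.7% and 10.0%. Ezhip is X-linked. Between the replicate 1 libraries, those with high Xist, the log2 difference was 0.22, and in the other 4 libraries the log2 fold change was -0.84 (adjusted p = 0.182 in edgeR). The part of Xist status in this was not tested. Ezhip lies within the span of the predicted RNA gene Gm26618 on the same strand in GENCODE.

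**Figure D3:**
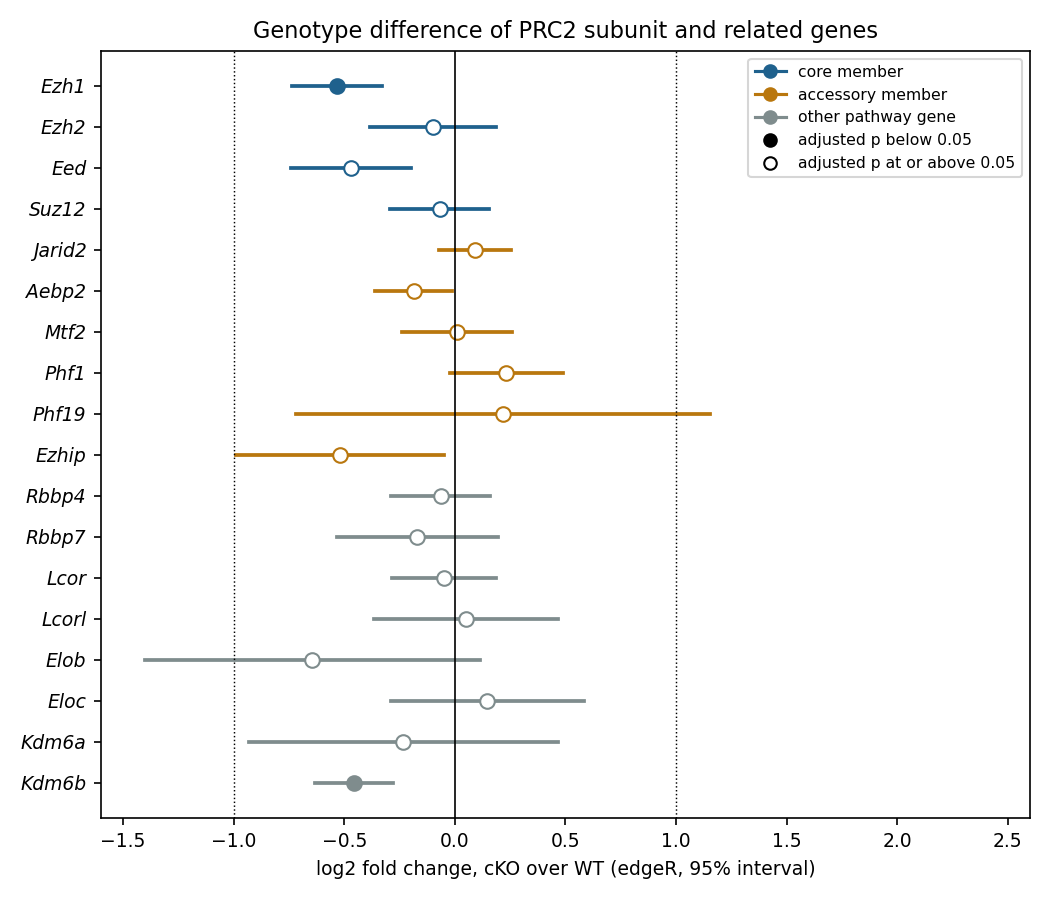
Log2 fold change, cKO over WT, with its 95% interval for the 10 members and for 8 other genes of the pathway; filled points passed the test at an adjusted p below 0.05, and dotted lines mark 2-fold. Ezh1 (-0.53) and Kdm6b (-0.46) are filled, and the intervals of Eed, Aebp2 and Ezhip lie below 0 although these genes did not pass.

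Taking the 10 members as a list, 6 had a negative and 4 a positive log2 fold change, with a median of -0.08 against -0.01 over all tested genes. All 4 core genes were negative (median -0.28), and of the 6 accessory genes 4 were positive (median 0.05). An unadjusted p below 0.05 in edgeR was found for 4 of the 10, Ezh1, Eed, Aebp2 and Ezhip, each lower in cKO, where 11.9% of all tested genes had such a p and 6.05% in the lower direction. Without Ezh1, the targeted gene, 3 of 9 had such a p. Across the 13 other fits the count among the 10 was 2 to 4, with 2 in DESeq2 and without WT replicate 2. The libraries of the genotypes did not overlap for 4 of the 10, 3 lower and 1 higher, where this held for 16.3% of all tested genes. Without Ezh1 these were 2 lower and 1 higher of 9. The 95% interval lay within 2-fold for 9 of the 10, all but Phf19, and for 81% of all tested genes.

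Summed per kb of exon, the 4 core genes reached 42.8, 38.6 and 40.8 CPM per kb in cKO and 50.3, 52.7 and 48.5 CPM per kb in WT. Every cKO sum was below every WT sum, by 19.4% in the mean (exact permutation p = 0.1). Without Ezh1 the core sum was 32.0 ± 2.03 CPM per kb in cKO and 37.9 ± 2.79 CPM per kb in WT, still without overlap (exact permutation p = 0.1). Without Eed as well, the sum of Ezh2 and Suz12 was 19.8 ± 1.28 CPM per kb in cKO and 20.9 ± 1.59 CPM per kb in WT, and the genotypes overlapped (exact permutation p = 0.3). With scaling by library size alone the core sum without Ezh1 overlapped too (exact permutation p = 0.2).

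The accessory genes summed to 74.3, 73.1 and 74.6 CPM per kb in cKO and 69.2, 77.8 and 73.9 CPM per kb in WT, a difference of 0.488% in the mean (exact permutation p = 0.8). Within a library, the log2 ratio of core to accessory was -0.79, -0.92 and -0.87 in cKO and -0.46, -0.56 and -0.61 in WT. The difference of -0.32 exceeded the spread within a genotype (SD 0.06 in cKO and 0.08 in WT, exact permutation p = 0.1), and with Ezh1 left out of the core it was -0.25. The log2 ratio of Polycomb-like to PRC2.2 genes was -0.51, -0.81 and -0.68 in cKO and -0.94, -0.71 and -0.74 in WT, which overlapped (exact permutation p = 0.4). That difference was 0.13 with all libraries and -0.020 without both replicate 1 libraries. It was 0.30 per kb of gene span and 0.20 as a difference of mean log2 CPM over the genes, and with either measure the genotypes did not overlap (exact permutation p = 0.1 each).

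By level per kb of exon, the order in cKO was Jarid2 (29.3 CPM per kb), Phf1 (13.9), Aebp2 (13.6), Mtf2 (12.5), Eed (12.2), Suz12 (11.4), Ezh1 (8.72), Ezh2 (8.39), Ezhip (4.25) and Phf19 (0.537). In WT it was Jarid2 (27.4 CPM per kb), Eed (17.0), Aebp2 (15.4), Ezh1 (12.6), Mtf2 (12.4), Suz12 (11.9), Phf1 (11.8), Ezh2 (9.01), Ezhip (6.08) and Phf19 (0.461). In both genotypes Jarid2 was apart from the next gene at the top, and Ezhip and Phf19 were apart at the bottom. In WT the ranges of Ezh1, Mtf2, Suz12 and Phf1 overlapped from each gene to the next, while in cKO Ezh1 was apart from Suz12 above it and overlapped with Ezh2 below it. Ezh1 thus stood next to Ezh2 in cKO, and among Mtf2, Suz12 and Phf1 in WT. This order holds for exon length alone: per kb of gene span Jarid2, the longest of the genes, had 0.944 CPM per kb in cKO and 0.885 in WT, below Suz12 with 1.21 in cKO and 1.27 in WT.

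**Figure D4:**
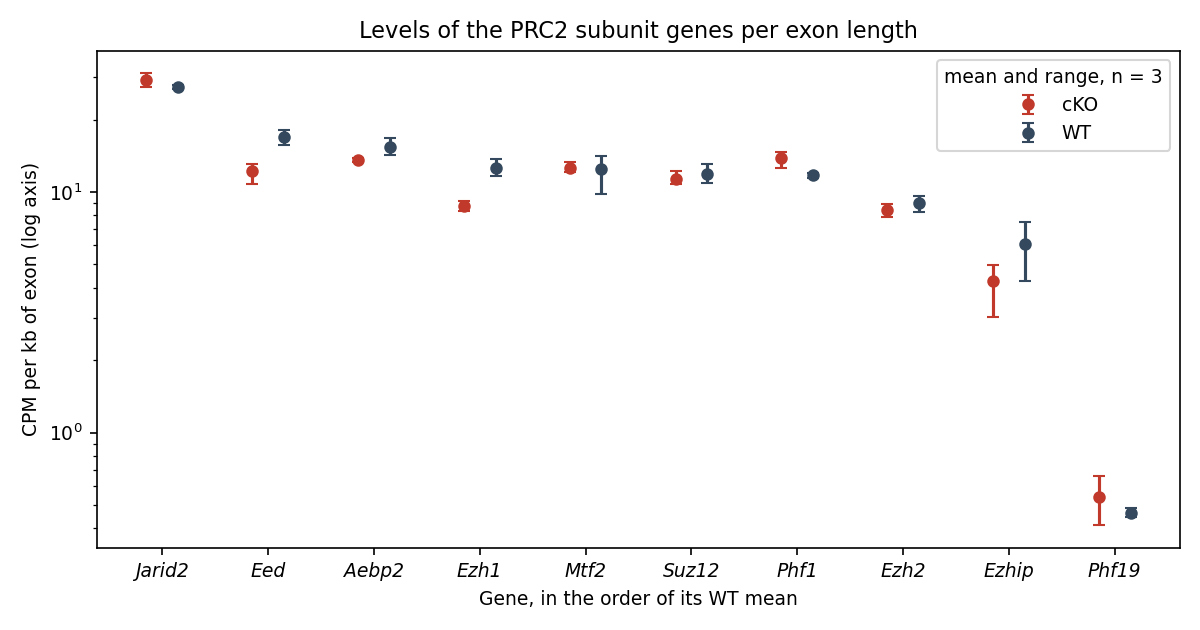
Level per kb of exon (log axis) of the 10 genes, in the order of their WT mean; points are means and bars the range over 3 libraries, cKO left of WT for each gene. Ezh1 lies at 8.72 in cKO, beside Ezh2 at 8.39, and at 12.6 in WT, beside Mtf2 at 12.4.

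Other genes of the pathway were set beside the members. Of 7 further subunits or partners of PRC2 6 were tested and edgeR called 0, with 0 at an unadjusted p below 0.05. Over all tested genes these shares were 0.587% and 11.9%. The histone-binding core partner Rbbp4 had a log2 fold change of -0.06 (95% interval -0.29 to 0.16) and its relative Rbbp7 one of -0.17 (-0.53 to 0.20). Lcor and Lcorl, whose loci encode PRC2.1 partners, had log2 fold changes of -0.05 and 0.05, and the elongin genes Eloc and Elob had 0.15 and -0.64, the last with an interval of -1.40 to 0.11. The value of Elob rested on WT replicate 2, with 54 counts against 25 and 26 in the other WT libraries, and was -0.17 without it. Epop, which encodes a PRC2.1 partner of stem cells, had at most 4 counts in a library and was not tested.

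Of the 3 genes of the H3K27 demethylase family, Kdm6a, Kdm6b and Uty, Kdm6b fell, where edgeR called 0.259% of all tested genes as lower. Kdm6b had 138.2, 149.6 and 135 CPM in cKO, against 174, 212.7 and 193.6 CPM in WT, without overlap (log2 fold change -0.46, SE 0.09, adjusted p = 0.00758 in edgeR). The call was lost without cKO replicate 1, WT replicate 2 or WT replicate 3 (adjusted p of 0.0857 to 0.117). Kdm6a, on the X chromosome, had a log2 fold change of -0.23 (95% interval -0.93 to 0.47, adjusted p = 0.817 in edgeR). Uty, on the Y chromosome, had one of 0.45 (95% interval -3.20 to 4.09, adjusted p = 0.936 in edgeR).

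The tested genes whose level ran closest to that of Ezh1 over the 6 libraries, by the root mean square difference of centred log2 CPM among 8010 genes of at least 10 CPM, were Eif6, a translation initiation factor gene (0.07), Utrn, which encodes the dystrophin relative utrophin (0.08), and Cc2d2a, a gene of the ciliary transition zone (0.08). Utrn had 205, 214 and 208 CPM in cKO and 254, 281 and 301 CPM in WT (log2 fold change -0.42, adjusted p = 0.00944 in edgeR), and Cc2d2a fell too (-0.42, adjusted p = 0.0406 in edgeR). The call of Utrn was lost in 3 of the 13 other fits, each without 1 library. That of Cc2d2a was lost in 9, also with all 6 libraries under library-size scaling, the replicate block and limma-voom (adjusted p of 0.0633, 0.0803 and 0.0919). Closest to Ezh2 were Adam10, which encodes a membrane protease (0.02), Ptk2, which encodes focal adhesion kinase (0.03), and Wwp2, a ubiquitin ligase gene (0.03), with log2 fold changes of -0.10, -0.04 and -0.15. These genes were picked by their values, which describe them and support nothing further.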

How the data were processed

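The authors deposited raw integer counts per gene as 1 table with a column per library and NCBI gene identifiers. Per the submitters' processing notes, Subread and the mm10 genome were used; no source used here gives the version, the gene annotation or whether strand was used. Per the labels' protocols, nuclei were fixed and sorted for NeuN and libraries made with the NEBNext Ultra II RNA kit. Positions and symbols are from RefSeq (GRCm38.p6, the assembly of mm10), and exon lengths are the union of exons of GENCODE M21 basic transcripts matched by NCBI identifier.

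The main analysis used edgeR 4.0.16 under R 4.3.3: filterByExpr, TMM scaling, and robust quasi-likelihood tests (glmQLFit, glmQLFTest) of genotype over all 6 libraries, with Benjamini-Hochberg adjustment over all 13115 tested genes. CPM are counts scaled by library total and TMM factor. Means are ± SD of 3 libraries. Ratios and sums within libraries were compared by exact two-sided permutation tests. Intervals on shares are 95% Wilson intervals. The edgeR fit was tested on simulated counts with changes of 2-fold or more. These are larger than those of the PRC2 members, so changes of their size were not tested. The alternatives were library-size scaling, no filter, DESeq2 1.42.0, limma-voom (limma 3.58.1), leaving out the 4 largest entries, a replicate block and leaving out libraries. Members, gene lists and the naming rule (all members, other pathway genes, the 3 genes closest in level to Ezh1 and to Ezh2) were chosen with earlier results of these data known. No library repeated another of its genotype (chi-square over degrees of freedom 4.06 to 5.08).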

Additional observations from a re-analysis of the deposited data

How the results depend on the processing

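The fall of Ezh1 kept its direction in all 13 other fits and its call in 11 (log2 fold change -0.58 to -0.47). The number of members called was 0 to 1 when single libraries were left out, and that of other pathway genes also 0 to 1. Of all tested genes 77 were called, 277 with no filter on low counts, 42 with limma-voom, 40 without replicate 1 of both genotypes, and 13 to 249 when single libraries were left out. Scaling by library size alone moved the split to 69 higher and 32 lower, against 43 higher and 34 lower with TMM, and changed no call among the members; it moved the median of all genes to 0.03. DESeq2 gave no adjusted p to 5 members. Some uncalled differences turned sign. The accessory sum (log2 ratio 0.01) was -0.039 without replicate 1 of both genotypes, -0.077 by gene span, and -0.036 to 0.048 without single libraries. The difference in the Polycomb-like to PRC2.2 ratio (0.13) was -0.020 without replicate 1 of both genotypes, 0.30 by gene span and 0.20 as mean log2 CPM. Log2 fold changes without single libraries ranged from -0.13 to 0.11 for Mtf2, -0.13 to 0.00011 for Suz12, -0.13 to 0.054 for Lcor, -0.15 to 0.19 for Lcorl, -0.42 to 0.034 for Kdm6a, -0.092 to 1.01 for Uty and -0.11 to 0.011 for Ptk2; without replicate 1 of both genotypes they were -0.18 for Mtf2, 0.013 for Lcor and -0.11 for Lcorl. The cause was not tested.

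Off chromosomes X and Y, replicate numbers did not pair the libraries. Deviations of same-numbered libraries correlated there at 0.06, -0.02 and -0.07, against -0.05 to 0.08 for other pairs. Over all tested genes the same-numbered libraries gave 0.15, 0.01 and -0.04, and the replicate 1 libraries matched in Xist and Y-linked genes. With replicate number as a block, 90 genes were called, among members Ezh1 alone (adjusted p = 0.0140), and the log2 ratio of Ezh1 to Ezh2 differed by -0.43 with a sign permutation p of 0.25, the smallest that 3 pairs allow. The log2 difference in the core to accessory ratio was -0.36 without Ezhip and -0.25 without Ezh1, and that in the Polycomb-like to PRC2.2 ratio was 0.037 without Phf1. These and the sum of Ezh2 and Suz12 were added after seeing the data. Depth limits Phf19 and Epop most.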

Other observations

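Kdm6a, the X-linked demethylase of H3K27, and Uty, its Y-linked relative, set the replicate 1 libraries apart from the others. Kdm6a had 79.9 CPM in cKO replicate 1 and 101.7 CPM in WT replicate 1, while the other libraries had 55.4 and 57.0 CPM in cKO and 61.4 and 63.8 CPM in WT. Uty had 8 counts in cKO replicate 1 and 4 in WT replicate 1, while the others had 162 and 192 in cKO and 131 and 173 in WT. The replicate 1 libraries are also those with high Xist. Their levels over 4 Y-linked genes summed to 2.45 CPM in cKO and 1.51 CPM in WT, against 122.9 to 148.0 CPM in the other libraries. Rbbp7, another X-linked gene of the pathway, had 18.0 CPM in cKO replicate 1, above the 15.6 and 14.6 CPM of the other cKO libraries, and 18.9 CPM in WT replicate 1, between the 21.9 and 13.7 CPM of the other WT libraries.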
